A study of Mus musculus with 3 samples.

Results

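The germline V, D and J segments of the T cell receptor beta chain were followed in effector memory CD4 T cells of 1 mouse. The members are all genes whose GENCODE M21 symbol starts with Trbv, Trbd or Trbj: 35 V, 2 D and 14 J segments, in all 51 of the 55536 annotated genes. GENCODE places 22 of the V segments in the functional V class and 13 in the pseudogene class, and 1 of the J segments, Trbj2-6, is a J pseudogene. RNA with polyA tails was sequenced from primary effector memory CD4-positive alpha-beta T cells of an adult male aged 5 months of the line B6.SJL-Ptprca Pepcb/BoyJ, which is congenic for the CD45 allele Ptprca. No treatment is named. The cells form 1 group of 3 libraries, which the labels number 1, 2 and 3 as technical replicates of a single biosample. Each SD below (n = 3) is therefore a spread between libraries and not between animals. The sources used here do not give how the cells were sorted.

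A T cell makes its beta chain gene by V(D)J recombination. The RAG proteins cut the DNA beside a V, a D and a J segment, the ends are joined by the general machinery of DNA end joining, and the joined VDJ exon is then spliced in the RNA to the constant gene Trbc1 or Trbc2. The mouse locus has a long upstream array of V segments, then D, J and constant segments in a pair of clusters, and last Trbv31, which lies in the opposite orientation and joins by inversion. The V segment supplies most of the variable domain, the D segment and its junctions the centre of the third hypervariable loop, and the J segment the last strand of the domain. Because each clone of T cells carries its own join, the V and J transcripts of a bulk sample reflect the clones in it. In such a sample more cells that use a segment and more RNA per cell cannot be told apart.

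The members lie on chromosome 6 of mm10, and the J segments run from Trbj1-1 to Trbj2-7 within chr6:41533864-41543856. The D and J sequences below were read from the GENCODE M21 transcripts and not from this mouse. They are shown because their length sets what the tables can hold. The reads were 50 bases long, by the difference between the deposited transcript lengths and effective lengths. Capitals mark TTNGGNNNNGG, the letters shared by codons of the conserved Phe-Gly-X-Gly turn of the J segment.
Trbd1: gggacagggggc
Trbd2: gggactgggggggc
Trbj1-1: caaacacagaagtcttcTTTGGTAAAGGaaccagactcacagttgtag
Trbj1-4: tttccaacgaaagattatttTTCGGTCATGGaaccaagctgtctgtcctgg
Trbj2-7: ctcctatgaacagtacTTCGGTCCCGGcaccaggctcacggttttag
Trbj1-6: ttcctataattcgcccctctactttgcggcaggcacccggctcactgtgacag
Trbj1-7: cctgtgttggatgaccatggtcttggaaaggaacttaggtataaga
Trbj2-6: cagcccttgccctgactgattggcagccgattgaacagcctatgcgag

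Searched on both strands, the motif stood in 11 of the 14 J segments and was not found in Trbj1-6, Trbj1-7 and Trbj2-6. Of 141378 other annotated transcripts, 1.56% held it in their last 50 bases. Trbd1, with 12 bases, and Trbd2, with 14, are much shorter than a read, so every read that touches a D segment also covers its neighbours. Near their end the V segments hold the codon of the conserved cysteine, at the start of the third hypervariable loop, and run on for a few more codons. The letters TGTGCCAGC or TGTGCTAGC, which encode Cys-Ala-Ser, stood within the last 45 bases of 16 of 22 functional V transcripts and 4 of 13 V pseudogenes, against 0.0707% of other transcripts searched on both strands. The ends of the 4 most abundant V segments follow, with these letters in capitals. Trbv31 ends without them.
Trbv13-3: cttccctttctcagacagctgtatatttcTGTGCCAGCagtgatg
Trbv31: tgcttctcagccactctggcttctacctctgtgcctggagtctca
Trbv13-2: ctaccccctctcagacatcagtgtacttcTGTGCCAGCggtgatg
Trbv29: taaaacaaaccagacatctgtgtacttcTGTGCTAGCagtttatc

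Expected counts on annotated genes came to 17475086, 15303744 and 16882441 in libraries 1, 2 and 3, and the Trbv genes held 5701, 4922 and 5757 of them after rounding. All 7 alpha-beta T cell markers were detected, among them Trac, Cd4 and the genes of the CD3 chains. Library 1 stood apart from the others. Its Cd4 TPM was 269 against 541 and 523, and its Trac TPM was 6922 against 3647 and 3493.

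Most functional V genes were detected, and of the pseudogenes only Trbv24 was. At a TPM (transcripts per 1000000 transcripts) of at least 1 in every library, 20 of 22 functional V genes were detected, or 90.9%, and 1 of 13 V pseudogenes. Over all annotated genes that share was 21.1%. For the alpha chain, 79 of 128 Trav genes passed, or 61.7%, close to the 60% of Trbv genes when both classes are taken. The functional V genes not detected were Trbv21, with 0.77, 0 and 0.58 TPM, and Trbv30, with 0.66, 0.80 and 0 TPM. Each rested on 4 counts in all. Of the pseudogenes, 10 had no count in any library, which at 3 counts allows a TPM of 0.791 to 1.60 depending on length and depth. Trbv12-3 had 3 counts over all libraries and Trbv22 had 2.

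Levels of the V genes were strongly uneven. Trbv13-3, the V segment formerly called V beta 8.1 (chr6:41130147-41130585), stood at a TPM of 634 in library 1, 568 in library 2 and 559 in library 3. It was the highest Trbv gene in each library and held 32.5% ± 3.12 of the Trbv TPM. Its share was 31.3% in M21 expected counts, which are not per length, and 19.2% in M4 counts. In M4 counts it was nearly level with Trbv31 in library 1, at 535 against 533 counts. Trbv31, formerly V beta 14 (chr6:41557691-41558452), had 459, 366 and 372 TPM, or 22.1% ± 3.49. Trbv13-2, formerly V beta 8.2 (chr6:41121396-41121832), had 260, 365 and 345 TPM, or 17.8% ± 2.68. The TPM ranges of these leading genes did not overlap, and their order by TPM was the same in every library. For Trbv31 and Trbv13-2 this rests on a near tie in library 2, at 365.59 against 365.24 TPM. In M4 counts they were tied there, at 463 each.

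Trbv29, formerly V beta 7 (chr6:41271394-41271881), followed with 94.6, 170 and 176 TPM. Trbv12-2, formerly V beta 5.1, had 55.9, 86.5 and 91.4 TPM, and Trbv13-1, formerly V beta 8.3, had 81.1, 76.3 and 75.5 TPM. Trbv14, formerly V beta 13, had 40.0, 71.4 and 85.1 TPM. Trbv29 lay above the next gene in every library, whereas Trbv13-1 overlapped with both Trbv12-2 and Trbv14, its neighbours in the order. Trbv13-1 differed little between libraries, with a mean of 77.6 ± 3.00, while Trbv12-2 and Trbv14 were lowest in library 1.

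Below these, Trbv24 had 28.4, 17.0 and 14.9 TPM, Trbv20 18.5, 10.3 and 17.2, and Trbv4 12.4, 15.8 and 15.2. All of Trbv14's values lay above those of Trbv24, and Trbv24, Trbv20 and Trbv4 overlapped. Of the 9 pairs of neighbours among the 10 leading genes, 5 did not overlap between libraries. The other 11 functional genes detected ran from a mean of 2.51 TPM for Trbv23 to 12.1 for Trbv19, with a median of 6.84, and all genes outside the 10 leading ones together held 4.50% ± 0.364 of the Trbv TPM.

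**Figure D1:**
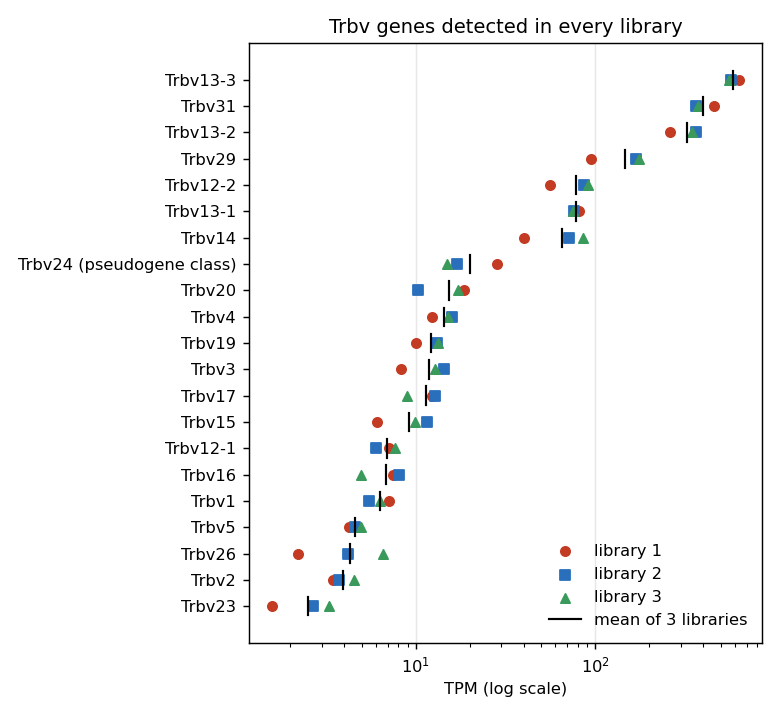
TPM on a log axis of the 21 Trbv genes detected in every library; each point is 1 library and the black line is the mean of 3 libraries. Trbv13-3 lies at 559 to 634 TPM and Trbv23 has a mean of 2.51, and in Trbv29, Trbv12-2 and Trbv14 library 1 lies to the left of the others.

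The 5 leading genes together held 85.6%, 84.8% and 84.1% of the Trbv TPM in libraries 1, 2 and 3. The inverse Simpson index of the shares, the number of genes at equal level that would give the same unevenness, was 4.39, 5.27 and 5.40. Over Trav genes it was 5.44, 6.96 and 7.67, with 67.3% ± 7.73 of Trav TPM in the 5 leading genes. The Trav libraries spread more widely than the Trbv libraries in the summed share. The difference between the chains was not tested, since the alpha locus has many more V genes and nearly identical copies among them.

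Families of like sequence made up much of the total. The 3 Trbv13 genes held 54.6% ± 1.14 of the Trbv TPM and the Trbv12 genes 4.69% ± 0.957. Trbv13 and Trbv12 genes alternate along the chromosome, and the 7 genes from Trbv12-1 to Trbv14, within 22.1 kb, held 62.9% ± 1.36. Trbv31, beyond the constant genes and 25.3 kb from Trbd1, held much of the rest. Over all 21 functional V genes upstream of Trbd1, at 252 to 642 kb and with this block included, Spearman's rho between distance and mean TPM was 0.16, as a description across genes of the same libraries.

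**Figure D2:**
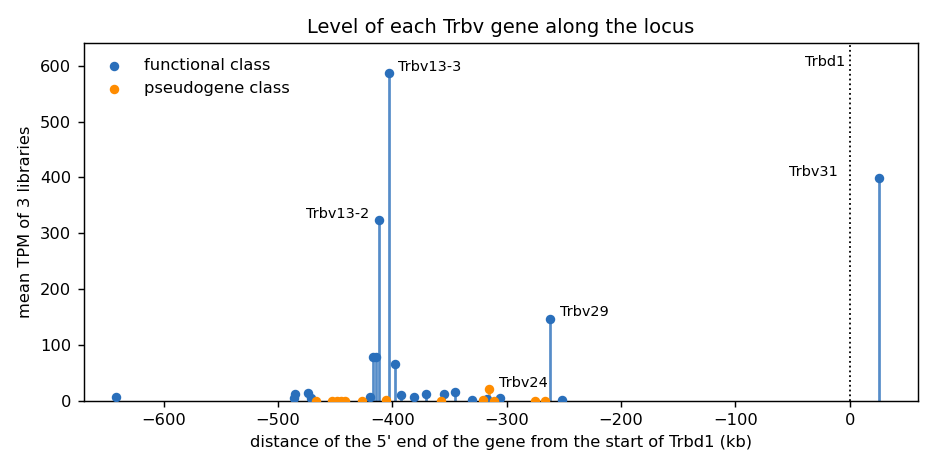
Mean TPM of 3 libraries on a linear axis for each of the 35 Trbv genes, by the distance of its 5' end from the start of Trbd1 in kb; the dotted line marks Trbd1. The tall lines are Trbv13-2 and Trbv13-3 in the block of 22.1 kb, Trbv29, and Trbv31 downstream at 25.3 kb.

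Like sequence did not leave the leading genes unresolved. Trbv13-2 and Trbv13-3 were 90.6% identical over 340 aligned bases, and Trbv12-1 and Trbv12-2 88.3% over 385. Yet Trbv13-3 shared 1 of its 291 windows of 50 bases, the read length, with Trbv13-2, and 28 of 35 Trbv genes shared no window with any other annotated gene. The deposited posterior SD of the Trbv13-3 count was at most 2.02. Larger overlaps were with annotated noncoding transcripts on the same strand. Of the windows of Trbv4, 72.1% also lay in 5830405F06Rik, a lincRNA with 0.21, 0.25 and 0.21 TPM, and of those of Trbv5, 77.4%. All 236 windows of Trbv8, a pseudogene without a count, lay in AC153851.1, which had 0.16, 0 and 0.17 TPM. The values of Trbv4, Trbv5 and Trbv8 are therefore less certain than the others.

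The annotated class went against the level in Trbv24 and, by the other annotation, in Trbv29. Trbv24, formerly V beta 17 (chr6:41218091-41218557), is a pseudogene in GENCODE M21 and a V segment in RefSeq, and it was the highest of all V pseudogenes and the only one detected. Trbv29 is functional in GENCODE M21 and a V segment pseudogene in RefSeq, and it was the fourth V gene by TPM in every library. The pseudogene class as GENCODE gives it held 1.66%, 0.972% and 0.828% of Trbv TPM in libraries 1, 2 and 3, nearly all of it Trbv24. The Trbv24 transcript starts with ATG and first meets an in-frame stop, TAG, at base 325 of 347. None of the 8 functional V transcripts that start with ATG had an in-frame stop. The last 45 bases of Trbv24 are shown with those of Trbv26, a functional gene 73.8% identical to it, with the codon in question in capitals.
Trbv26: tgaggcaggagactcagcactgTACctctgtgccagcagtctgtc
Trbv24: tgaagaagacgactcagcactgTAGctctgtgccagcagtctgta

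The 2 ends differ by 6 substitutions, written with the base of Trbv26 first and counted from the first of the 45 bases: G4A, C6A, G9A, A10C, C25G and C45A. C25G lies in the codon in capitals, which spells tyrosine in Trbv26 and a stop in Trbv24. These letters are those of the reference strain, and the tables do not show what this mouse carries at the site. Trbv26 itself had 2.21, 4.20 and 6.55 TPM, below Trbv24 in every library.

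For a few V genes the annotation holds more than 1 transcript. Trbv31-201 took 73.7%, 78.8% and 78.1% of the Trbv31 TPM in libraries 1, 2 and 3. Trbv13-1-201 took 52.3%, 74.7% and 70.5% of Trbv13-1, so library 1 again stood apart, although the gene's total hardly moved.

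The V segments were set against the constant genes to which they are spliced. Summed Trbv TPM was 1756, 1835 and 1836, and summed Trbc1 and Trbc2 TPM was 3446, 3385 and 3617. Their ratio was 0.509, 0.542 and 0.508, with a mean of 0.520 ± 0.0194. For the alpha chain, Trav to Trac, the ratio was 0.693, 0.692 and 0.684. The Trbv ratio depended on the table: it was 0.241 in expected counts, which are not per length, and 2.43 in M4 counts, where it lay above 1. In TPM the ratio of both chains lay below 1 and varied little between libraries, although summed Trav TPM was 4796 in library 1 against 2524 and 2388. A read that crosses a V(D)J junction matches no single germline segment, and the sources used here do not give how such reads were placed. Trbc1, the constant gene of the first cluster, took 34.1%, 32.0% and 30.5% of the Trbc TPM and Trbc2 the rest.

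The J segments could be read from the M4 counts only. In the M21 tables both D segments and 8 of 14 J segments had an effective length of 0, that is, no room for a read, and the remaining J segments had room for 4 start positions or fewer. Summed M21 J counts were 37, 20 and 19, yet through the tiny effective lengths they gave summed TPM values of 1559, 1072 and 1031, which are not used as levels. The M4 tables held 1076, 1001 and 1074 counts on 13 J segments. Trbj2-6 was not matched there by its ID.

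In the first cluster Trbj1-4 was highest, with 127, 114 and 114 M4 counts. Trbj1-5 had 118, 94 and 106 and Trbj1-2 had 104, 96 and 89. Trbj1-1, the first of the cluster, was lowest with 64, 49 and 55, below every other Trbj1 segment in each library. Trbj1-3 had 109, 75 and 89, Trbj1-6 had 98, 83 and 87, and Trbj1-7 had 96, 74 and 82. Trbj1-4 overlapped with Trbj1-5, and the segments between Trbj1-5 and Trbj1-1 in the order overlapped with one another. Trbj1-6 and Trbj1-7 lie 35 bases apart, less than a read, so 1 read can touch both.

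In the second cluster Trbj2-7 and Trbj2-5 were highest, with 79, 89 and 108 counts for Trbj2-7 and 79, 86 and 89 for Trbj2-5. Trbj2-3 had 65, 72 and 85, Trbj2-4 had 49, 61 and 75, Trbj2-1 had 44, 55 and 54, and Trbj2-2 had 44, 53 and 41. Trbj2-5 lay above Trbj2-4, Trbj2-1 and Trbj2-2 in each library without overlap, and Trbj2-1 and Trbj2-2 overlapped. Trbj2-4 and Trbj2-5 are 42 bases apart. Trbd1 had 41, 31 and 29 counts and Trbd2 had 30, 10 and 17.

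**Figure D3:**
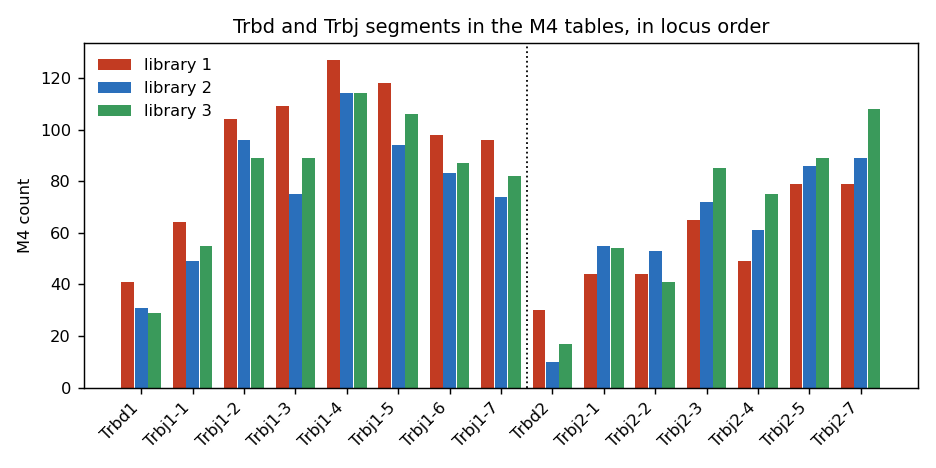
M4 counts on a linear axis for each D and J segment matched in the M4 tables, in locus order; bars are the 3 libraries and the dotted line separates the clusters. Trbj1-4 reaches 127, 114 and 114 counts, and in the second cluster library 1 lies at or below library 2 in each J segment.

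The second J cluster took 33.5% of the J counts in library 1 (95% Wilson interval 30.7 to 36.3), 41.6% in library 2 (38.5 to 44.6) and 42.1% in library 3 (39.2 to 45.1), with a mean of 39.0% ± 4.84. The interval of library 1 did not overlap those of the others. The first J cluster took the remaining 61.0% ± 4.84 on average, whereas Trbc1, the constant gene of that cluster, took 32.2% ± 1.81 of the Trbc TPM. The first share comes from M4 counts and the second from M21 TPM. The gap between these shares was not tested, and the J shares are not taken here as a measure of cluster usage. The sources used here do not give how PCR copies were treated. The intervals take counts as independent reads and cover counting error only. In the M4 counts, 68.4% of the 10242 genes tested varied between libraries by a chi-square test at an adjusted p below 0.05, and 0 of 13 J segments did. The J segments had 41 to 127 counts a library, and the genes were not matched for count. Unadjusted, Trbj1-3 alone had a p below 0.05 (0.0415). Trbd2 varied (adjusted p = 0.00720), at 30 counts in library 1 against 10 and 17. Between libraries 2 and 3 the background was 0.972%, and no J segment was called or had an unadjusted p below 0.05.

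The M4 and M21 tables ranked the V genes alike and differed in scale. Over the 21 V genes in both, Spearman's rho of the mean counts was 0.996, as a description across genes of the same reads. Trbv4 and Trbv24, both detected, were not matched by ID, nor was any other V pseudogene. For the 11 V genes with a mean M21 count of 10 to 100, the M4 count was 78.3% to 107% of it, with a median of 98.6%. For the 3 with at least 500 counts it was 30.4% to 49.1%, lowest in Trbv13-3 (521 M4 against 1711 M21 counts). Trbc1 kept 6.93% and Trbc2 3.94%. The same course appeared over all genes: where M21 counts per base were 0.1 to 0.3 the median M4 count was 57.6% of the M21 count, and where they were at least 10 it was 4.80%. M4 counts per base levelled at a median of 0.792 and 0.850 in the densest classes. M4 counts were also divided by the number of start positions from which a read of 50 bases overlaps a segment. By this measure J segments had 0.460 (Trbj2-2) to 1.18 (Trbj1-4). V genes in or near that range differed in how their M4 count stood to the M21 count. It was 82.8% of it in Trbv13-1 (0.484 per start position) and 99.7% in Trbv12-2 (0.596). In Trbv29 (0.714) it was 65.1%, and in Trbv13-3 (1.34) 30.4%. Whether M4 counts of J segments are compressed as those of the abundant V genes are was not tested.

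**Figure D4:**
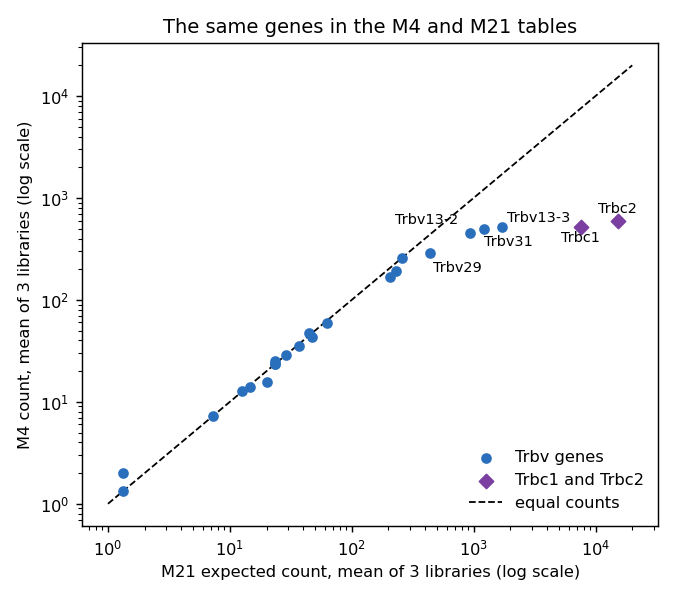
Mean M4 count against mean M21 expected count of 3 libraries, both on log axes, for the 21 Trbv genes in both tables and for Trbc1 and Trbc2; the dashed line marks equal counts. Low V genes lie on the line, and Trbv13-3 (521 against 1711), Trbc1 and Trbc2 lie under it.

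Library 1 stood apart from libraries 2 and 3 over all genes, and some V genes moved with it. By a chi-square test of homogeneity over the 3 libraries, fitted over all genes with at least 30 rounded counts, 9 of 20 Trbv genes tested varied at an adjusted p below 0.05, or 45%, against 75.8% of all 13178 genes. The share of V genes called lay below the background, but more counts make a call more likely, and the genes were not matched for count. Of the V genes above Trbv24 in mean TPM, all but Trbv13-1 were called. After the test statistic was divided by the median overdispersion of all genes, 19.9, 0 of the 20 were called. Trbv24 was called and at least 1.5-fold higher in library 1 (background 18.4%), by 0.88 on the log2 scale of counts per library total against the geometric mean of the others (adjusted p = 0.000259). Called and at least 1.5-fold lower in library 1 (background 28.0%) were Trbv29, by -0.83 (adjusted p = 2.24e-18), Trbv14, by -0.92, Trbv12-2, by -0.62, and Trbv26, by -1.20. Trbv26 rested on only 7, 11 and 20 counts in libraries 1, 2 and 3 (chi-square adjusted p = 0.0412). Trbv31 was higher by 0.38, Trbv20 by 0.53 and Trbv13-3 by 0.21, and Trbv13-2 stood at -0.41, all called and under 1.5-fold. For Trbv20 library 2 was the one apart, with 57, 26 and 51 counts in libraries 1, 2 and 3. Its value therefore came mainly from a low library 2, and library 1 lay close to library 3. With TMM or DESeq2 scaling, or scaled by the Trbv totals, all 9 called genes kept their direction and all but Trbv26 their call.

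In shares of the Trbv counts, Trbv29 took 5.42% in library 1 (95% Wilson interval 4.86 to 6.04) and 9.30% and 9.64% in libraries 2 and 3. Trbv31 took 26.5% (25.4 to 27.7) in library 1 against 19.9% and 20.3%. Between libraries 2 and 3 alone, 0 of 19 V genes were called by the chi-square test, against 16.7% of all genes, again not matched for count. Trbv14 and Trbv20 had an unadjusted p below 0.05 there. The median log2 value of library 1 over the others was -0.14 over the tested Trbv genes and -0.10 over all genes tested. Trac, Cd4 and Cd1d1, from the list of thymocyte markers, differed between the same libraries, and their part in the V differences was not tested.

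**Figure D5:**
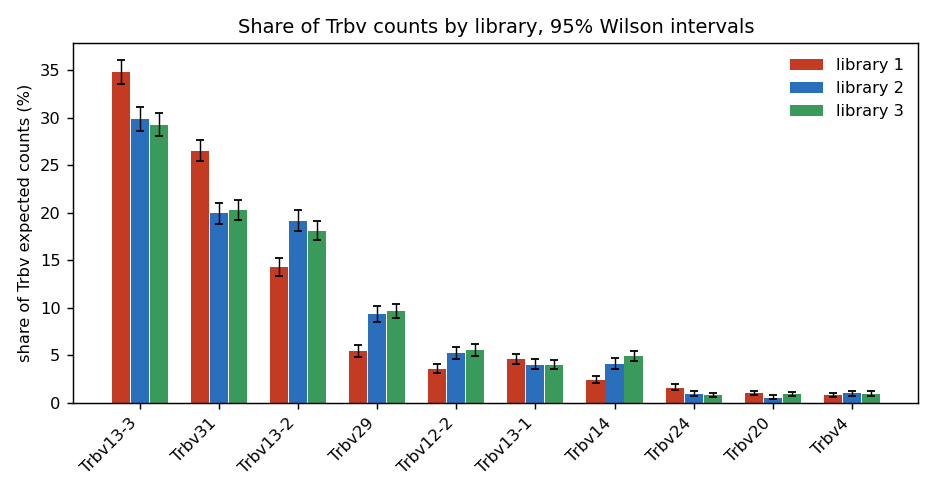
Share of the summed Trbv expected counts in percent, from 0, for the 10 leading genes; bars are the 3 libraries and whiskers are 95% Wilson intervals. Library 1 lies above the others in Trbv13-3, Trbv31 and Trbv24 and below them in Trbv13-2, Trbv29, Trbv12-2 and Trbv14, without overlap of the intervals.

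Of the 10 genes listed for V(D)J recombination, 6 were detected, and they were those of end joining. Xrcc6 and Xrcc5, the Ku subunits that bind broken ends, had mean TPM values of 38.3 ± 12.3 and 20.0 ± 2.89. Xrcc4 had 20.5 ± 6.20, Prkdc, the kinase recruited by Ku, 16.1 ± 6.03, Dclre1c, the nuclease Artemis, 15.1 ± 2.18, and Nhej1 6.45 ± 0.131. Lig4, the ligase, stayed under 1 with 0.34, 0.16 and 0.71 TPM. The genes of cutting and of base addition at junctions were at or near 0: Rag1 had 0, 1 and 4 counts, and Rag2 and Dntt had none.

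Of 8 genes listed for the receptor chains, 7 were detected. Besides Trac, Trbc1 and Trbc2 these were Cd3g, with a mean TPM of 692 ± 164, Cd3e, with 626 ± 218, Cd3d, with 402 ± 71.3, and Cd247, with 253 ± 0.713. Ptcra, which pairs with the beta chain before the alpha chain is made, had 1 count in each library. None of the 28 other annotated genes between the outermost V segments was detected in every library, and 20 of them had no count. Prss2, a trypsinogen gene, had 0.97, 1.32 and 0.88 TPM, and Gm2663 had 0.46, 0 and 1.43.

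Most markers of other cell types were low, with Cd1d1 as the main exception. On the list of 5 thymocyte markers, Rag1, Rag2, Dntt and Ptcra were not detected. Cd1d1, an antigen-presenting molecule, had 135 TPM in library 1 against 58.8 and 53.0, so the summed level of that list was 53.1 to 135 TPM and highest in library 1. None of 4 gamma-delta, 4 B cell and 3 myeloid markers passed, with summed TPM of 0.49 to 2.09, 1.56 to 3.08 and 1.47 to 2.22. For CD8 T cells Cd8b1 was detected, with 5.65, 8.10 and 10.8 TPM, and Cd8a had 0, 2 and 1 counts. For NK and NKT cells 2 of 5 passed, Klrb1c with a mean of 8.68 TPM and Trav11d with 9.78. Trav11d and Trav11 were both listed for the invariant NKT alpha chain, and Trav11 had no count in any library. Ncr1 had 0, 0 and 1 counts, and Zbtb16, the defining transcription factor of NKT cells, had 0, 9 and 0. The summed level of that list was 17.3 to 20.5 TPM. Invariant NKT cells are known to favour Trbv13-2, Trbv29 and Trbv1, and the part of such cells in these levels was not tested.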

How the data were processed

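The 3 libraries were compared with each other only, since the labels give 1 group and 1 biosample. Per the deposited notes, the M21 tables came from a transcriptome alignment and the M4 tables from a genome alignment, both on mm10. The sources used here do not name the aligner, the quantifier or the counter, nor whether strand was used. The M21 expected counts deposited by the authors are estimates that divide reads among transcripts, and they were rounded for tests. The deposited TPM values are scaled by effective length within each library. The deposited transcript tables hold the percent of a gene's TPM that falls on each transcript. The M4 counts deposited by the authors are whole numbers without a header.

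Members were found by symbol in the GENCODE M21 annotation. The 51 members and the lists were chosen with earlier results of these data known. Named are the 10 Trbv genes with the highest mean TPM, pseudogenes at 1 TPM or more in any library, functional V genes not detected, every J and D segment, and the recombination and chain lists. Other V genes named were chosen after their values were seen. Library totals scaled Pearson's chi-square test over genes with at least 30 counts, with Benjamini-Hochberg adjustment over all of them. Those p-values set the libraries against counting error and not conditions. Shares have 95% Wilson intervals, and the floor for a count of 0 is 3 counts. Depth, at 4922 to 5757 Trbv counts a library, limits the rare V genes. Sequences came from GENCODE M21 transcripts, and classes and older names also from RefSeq. Recombination signals, promoters and proteins were not analysed here. Python 3.11.15, scipy 1.17.1, edgeR 4.0.16 (TMM) and DESeq2 1.42.0 (size factors) were used.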

Additional observations from a re-analysis of the deposited data

How the results depend on the processing

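The 6 results were recomputed under 43 alternatives, and 34 stayed within 1 SD between libraries or, for counts of genes, within 1.5 times. Leaving out 1 of 3 libraries cannot move the mean of a share or ratio by 1 SD, so those alternatives could not fail. Leaving out the J pseudogene, which has no M4 count, could not move the Trbj2 share either. The 34 include all of these, so that number does not measure how robust the results are. The share of Trbv13-3 fell from 32.5% to 19.2% in M4 counts and ranged from 30.7% to 33.5% when 1 library was left out. The share of the 5 leading genes was 84.8%, 83.6% in expected counts, 74.3% in M4 counts and 85.8% with the pseudogene class left out, and it ranged from 84.4% to 85.2% without 1 library. The Trbj2 share of 39.0% was 11.4% in M21 expected counts, which rest on 19 to 37 J counts a library, and 37.5% to 41.8% without 1 library. Leaving out Trbj1-7, an alternative chosen after seeing the data as was the scaling by Trbv totals, gave 42.4%. The ratio of Trbv to Trbc was 0.520 in TPM, 0.241 in expected counts, which are not per length, 2.43 in M4 counts, and 0.508 to 0.526 without 1 library. The number of detected Trbv genes, 21, was 19 with at least 10 expected counts and 17 with at least 10 M4 counts. Trbv4 and Trbv24 have no M4 value and so could not pass the latter. Under the other settings the number stayed at 21. The number of Trbv genes that varied, 9, became 0 after scaling by overdispersion and ranged from 0 without library 1 to 10 without library 3. In expected counts, which are not per length, the share of Trbv13-3 stayed at 31.3%. Apart from the scaling by overdispersion, for which the move to 0 follows from the division, the cause of these moves was not tested. No paired analysis was possible because the libraries form 1 group. Motif searches around the segments and in their promoters were not run.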
